A study of Mus musculus with 16 samples.

Results

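The replication-dependent histone genes of the mouse were followed in the left ventricle by RNA sequencing. The members are the genes with clustered histone symbols in the table: H2ac, H2bc, H3c and H4c genes with a number, the older Hist symbols, and H1f1 to H1f6. There were 66 of them among 55492 genes, with 6 H1, 19 H2A, 17 H2B, 12 H3 and 12 H4 genes. The rule used names alone and no measured value.

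Nucleosomes wrap DNA around a core of histones H2A, H2B, H3 and H4, and the linker histone H1 binds where the DNA enters and leaves. Cells make most of this protein in S phase, from clustered genes without introns whose mRNAs end in a short stem-loop bound by the protein SLBP, in place of a poly(A) tail. The heart muscle cells of adult mice rarely divide, whereas fibroblasts, endothelial cells and incoming leukocytes can.

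All mice were C57BL/6 males aged 8 to 12 weeks, and each of the 16 libraries came from a separate heart. PKM2fl/fl mice carry loxP sites around exon 10 of Pkm, the exon particular to the M2 isoform of pyruvate kinase, and served as controls. In PKM2-/- mice that exon had been excised in the whole body by CMV-Cre, and the Cre was then bred out, so all cell types carry the deletion. Hearts of each genotype were taken without surgery (baseline, n = 2), at day 3 after a sham operation (n = 3), or at day 3 after permanent ligation of the left anterior descending artery, which causes myocardial infarction (MI, n = 3).

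The libraries were depleted of ribosomal RNA and not selected for poly(A) tails, so transcripts without a tail could be counted. They held 20623769 to 71855101 reads on genes, and 15.9% to 46.3% of these lay on loci related to ribosomal RNA. Values are normalized counts, that is, reads divided by a size factor for each library, and are not corrected for transcript length. Pkm as a whole gene ran from 7779 to 16113 normalized counts over the 16 libraries. Its log2 difference, PKM2-/- minus PKM2fl/fl, was 0.42 ± 0.19 (SE) at baseline and 0.59 ± 0.16 after sham, which did not pass the adjusted test (limma adjusted p = 1 and 0.17). Both PKM2-/- baseline hearts (11981 and 12984) lay above both PKM2fl/fl baseline hearts (9602 and 9108). The gene total joins both isoforms and does not check the deletion of exon 10. Heart muscle markers were present in all groups: the summed level of 6 cardiomyocyte genes was 627458 to 796182 normalized counts in the baseline and sham hearts.

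Reads of tested members can be shared. Of the 54 tested members with a transcript in GENCODE M39, 49 had at least one 75-base stretch found in another member, and in 21 over 50% of such stretches were shared. How reads with several matches were assigned is not given in the sources used here, and the library kit does not mark strand. Values of single members, and medians over members, are therefore uncertain to that extent. The 5 tested members with no shared stretch were H1f1, H1f5, H2bc18, H2bc21 and H4c14. Exons of many members also overlap exons of other annotated genes. Those of H2bc18 overlap Gm42743 on the same strand and Gm20628 on the opposite strand.

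The stem-loops are shown because they are the feature that sets these mRNAs apart. The 16-base form GG, 3 pyrimidines, TT, a base other than G, T, any base, A, 3 purines and CC was searched in all GENCODE M39 transcripts. It occurred in 0.144% of all genes and in 43 of the 64 members with a transcript. Many of the other members have only their coding part annotated there. Capitals mark the stem-loop, which folds on its inverted repeat, in a stretch of 26 bases of the GRCm39 transcript.
H1f2: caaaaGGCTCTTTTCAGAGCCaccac
H3c3: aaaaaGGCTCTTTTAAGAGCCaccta
H2ac20: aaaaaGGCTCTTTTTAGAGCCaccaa
H3c8: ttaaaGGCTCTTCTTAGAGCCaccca
H4c4: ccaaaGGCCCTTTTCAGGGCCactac
H4c2: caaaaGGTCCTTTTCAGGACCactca
The form seen in H1f2 was shared by 24 members, that of H3c3 by 6, that of H4c4 by 6 and that of H4c2 by 2. Forms beginning GGCT belonged to H1, H2A, H2B and H3 genes, and those beginning GGCC or GGTC to H4 genes.

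The members lie in clusters. In the mm10 assembly (GRCm38.p6), RefSeq places 10 on chromosome 3 between 96219885 and 96270192, 23 on chromosome 13 between 21715711 and 22043658, and 31 on chromosome 13 between 23531044 and 23934913. Hist1h2al, annotated as a pseudogene, lies apart on chromosome 13 at 51200084, and Hist1h2ap could not be matched to RefSeq. The tables held a promoter for 58 members, and short motifs were looked for on both strands in the 250 bases before the start. The CCAAT box (CCAAT) was in 48 of 58 member promoters and in 34.5% of all 27025 promoters. It was in all H1, H2A and H2B promoters and in 8 of 10 H3 promoters, but in only 3 of 11 H4 promoters. The TATA box (TATAAA) was in 28 members and 13.0% of all promoters. The octamer core (ATGCAAA), known from H2B promoters, was in 6 of 15 H2B, 6 of 16 H2A and 1 of 11 H4 promoters, in no H1 or H3 promoter, and in 4.06% of all. The H1 box (AAACACA) was in 5 of 6 H1, 2 of 16 H2A and 2 of 15 H2B promoters, in no H3 or H4 promoter, and in 6.22% of all. These are matches of letters and not sites of binding.

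The 120 bases before the start given in the RefSeq table (GRCm38.p6) are shown for 3 members that rose strongly after infarction (H1f5, H2bc18 and H2bc3) and for H2bc6, an H2B gene that did not reach the 2-fold threshold. Each is written along the gene's own strand, and capitals mark the motifs named above.
H1f5 (chr13:21780626-21780745, minus strand): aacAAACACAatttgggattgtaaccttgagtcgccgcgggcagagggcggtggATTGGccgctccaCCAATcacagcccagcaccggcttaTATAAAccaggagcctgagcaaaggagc
H2bc18 (chr3:96269580-96269699, plus strand): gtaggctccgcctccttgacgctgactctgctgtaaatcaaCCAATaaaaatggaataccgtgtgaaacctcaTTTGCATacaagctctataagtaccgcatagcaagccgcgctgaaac
H2bc3 (chr13:23746614-23746733, plus strand): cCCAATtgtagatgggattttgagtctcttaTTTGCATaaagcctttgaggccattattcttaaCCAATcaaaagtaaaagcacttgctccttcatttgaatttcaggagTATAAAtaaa
H2bc6 (chr13:23621095-23621214, minus strand): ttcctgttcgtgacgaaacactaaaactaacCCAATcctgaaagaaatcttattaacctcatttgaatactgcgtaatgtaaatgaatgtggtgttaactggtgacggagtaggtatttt
In the H2bc6 stretch only the CCAAT box was found. Over the longer promoter span searched above, H2bc9, H2bc11 and H2bc13 also had only the CCAAT box of these motifs. They were nevertheless called higher after MI in both genotypes. The log2 change in PKM2fl/fl was 4.45 for H2bc11 and 3.83 for H2bc13. A link between these motifs and the size of the change was not tested.

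Histone transcripts rose after infarction in both genotypes. The summed normalized count of the 66 genes was 5946, 8346 and 6040 in the 3 PKM2fl/fl sham hearts and 23713, 23764 and 54821 in the 3 PKM2fl/fl MI hearts. It was 5707, 4233 and 5740 in PKM2-/- sham hearts and 28465, 27857 and 29446 in PKM2-/- MI hearts. All MI hearts lay above all sham hearts. The ratio of the group means was 5.03 in PKM2fl/fl, or 3.50 without MI replicate 3, and 5.47 in PKM2-/-. Baseline hearts summed to 6058 and 5221 in PKM2fl/fl and to 5311 and 5170 in PKM2-/-.

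**Figure D1:**
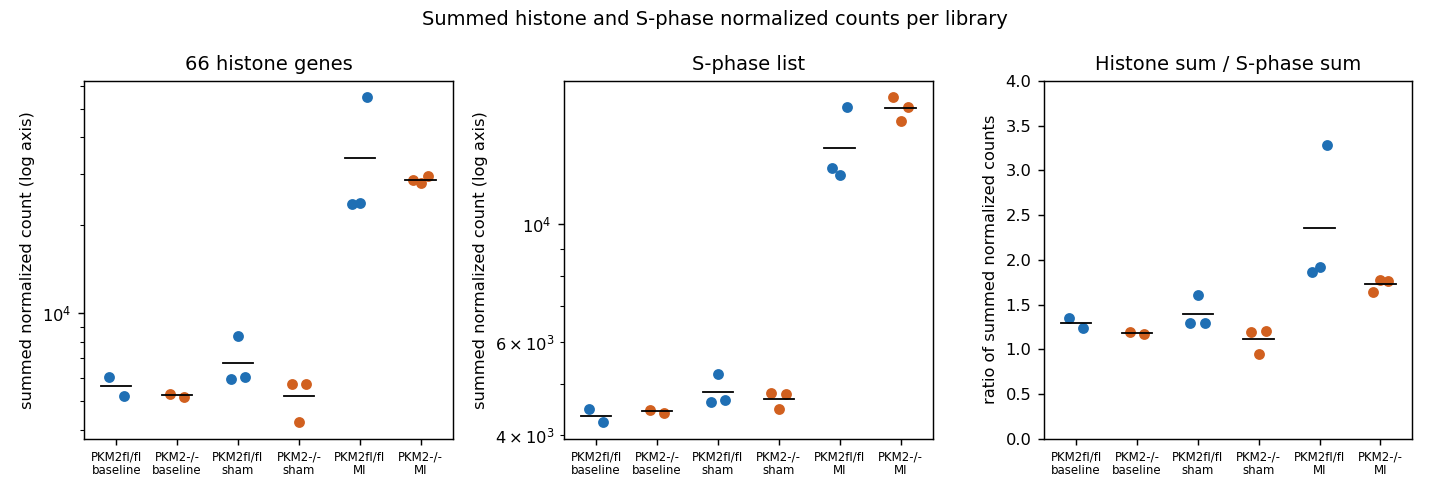
Summed normalized counts per library of the 66 histone genes (left, log axis) and of 30 S-phase genes (middle, log axis), and the ratio of both sums (right), for the 6 groups. Points are hearts and bars are group means; both sums are higher in every MI heart than in any baseline or sham heart, and 1 PKM2fl/fl MI heart, at 54821 and a ratio of 3.29, stands above the others.

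Gene by gene, 55 members had a mean of at least 10 normalized counts over the 16 libraries and were tested with limma-trend on log2(normalized count + 1), together with all 20576 genes above that level. A gene was called at an adjusted p under 0.05 and a change of at least 2-fold. In PKM2fl/fl hearts 48 members were called higher after MI and 0 lower, against 12.4% and 11.1% of all tested genes. In PKM2-/- hearts 51 were called higher and 0 lower, against 14.5% and 14.3% of all tested genes. No member was called lower at that fold by edgeR or DESeq2 either. At an unadjusted p under 0.05, 52 members were higher and 1 lower in each genotype. Of all 20576 tested genes, 5722 in PKM2fl/fl and 6365 in PKM2-/- were higher at that level. The median log2 change was 3.20 in PKM2fl/fl and 3.54 in PKM2-/-, where the median over all tested genes was -0.0025 and 0.010. In 11 tested members at most 10% of the stretches described above were shared with another member. Of these, 7 were called higher in PKM2fl/fl and 9 in PKM2-/-. Their median log2 change in PKM2fl/fl was 1.82, below that of all tested members. The part of shared reads in that difference was not tested.

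A member that is near 0 in sham hearts could enter the test only through its MI values. Restricted to the 49 members with a sham mean of at least 10, a choice made after seeing the data, 42 were called higher in PKM2fl/fl and 45 in PKM2-/-. Of all 20144 genes that passed this filter, 2236 and 2575 were called higher. Over all 66 members, including those too low to test, the 3 MI hearts lay above the 3 sham hearts for 57 genes in PKM2fl/fl and 54 in PKM2-/-. Of the 55 tested members, 52 in each genotype were among these. Such separation was seen for 30.0% and 31.7% of all tested genes.

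The 11 members below the test level were H2ac1, H2ac14, H2ac18, H2ac19, Hist1h2al, Hist1h2ao, H2bc1, Hist1h2bp, Hist1h2bq, Hist1h2br and H1f6, the testis-type H1. None passed 30.2 normalized counts in any library. H2ac1 had 0 reads in all libraries, which allows at most 3 reads among 603433522. Hist1h2bp, picked after its values were seen, had 0 to 2.45 normalized counts in the 6 sham hearts and 11.5 to 30.2 in the 6 MI hearts. Of its 75-base stretches 32.6% also occur in another member. Others did not separate: H2ac18 had 0 to 7.19 in the sham hearts and 4.45 to 13.7 in the MI hearts. H2ac19 had 3.22 to 8.33 and 4.33 to 28.4.

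**Figure D2:**
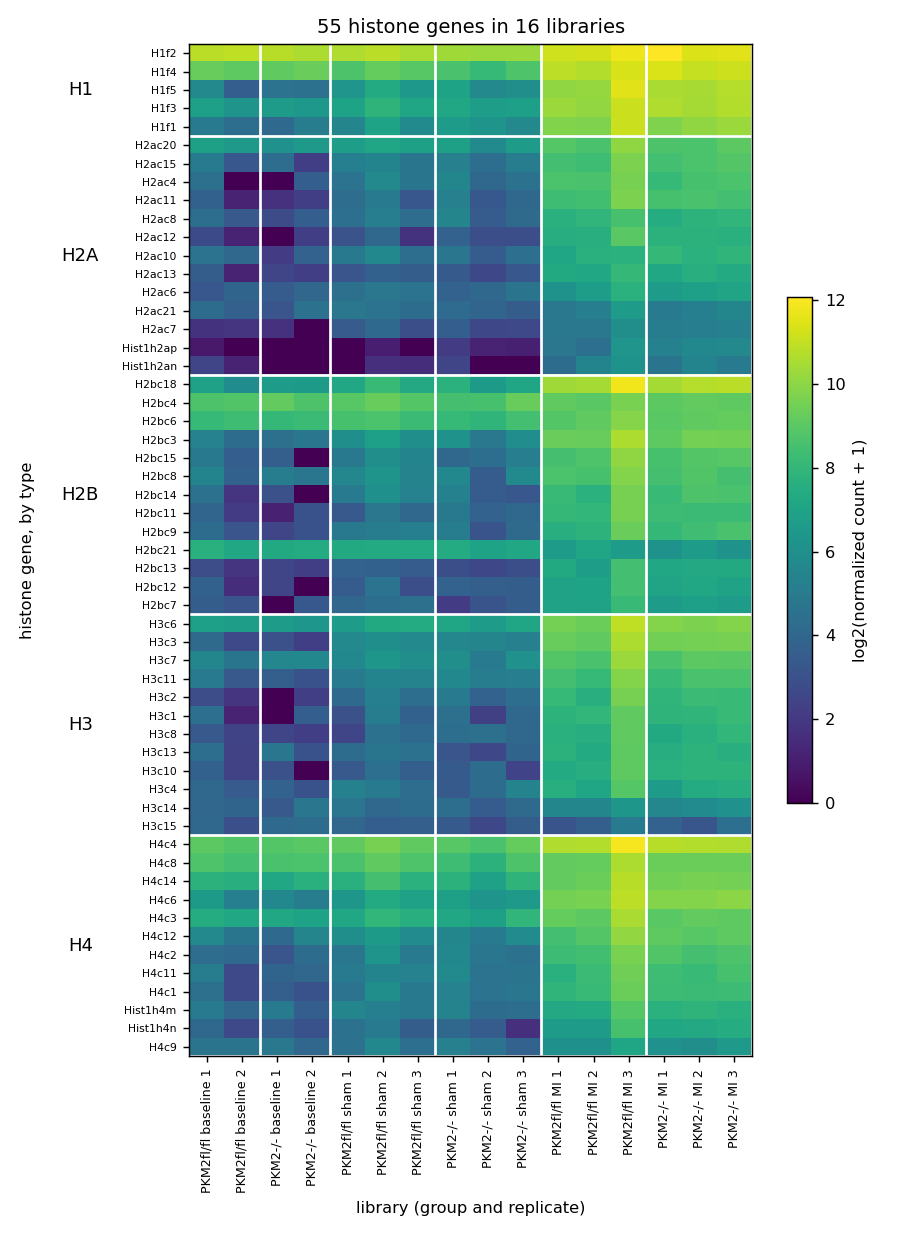
Normalized counts, as log2(normalized count + 1), of the 55 tested histone genes (rows, by type and by falling mean within a type) in the 16 libraries (columns, by group). The 6 MI columns on the right are brighter for nearly all rows; H2bc21 is the row that is darker there, and the PKM2fl/fl MI 3 column is the brightest for 51 of 55 rows.

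Among linker histones, H1f1 to H1f5 are the somatic forms. H1f5 had 76.4, 163 and 86.3 normalized counts in PKM2fl/fl sham hearts and 1056, 1159 and 2940 in PKM2fl/fl MI hearts. In PKM2-/- it had 125, 49.6 and 61.5 after sham and 1504, 1444 and 1678 after MI. The lowest MI heart was thus far above the highest sham heart in both genotypes, and the log2 change was 3.89 ± 0.49 (SE) in PKM2fl/fl and 4.39 ± 0.49 in PKM2-/- (limma adjusted p = 1.4e-05 and 3.1e-06).

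H1f3 had the smallest p of all members for the infarct effect in both genotypes. It had 129, 227 and 142 normalized counts after sham and 1206, 1101 and 2180 after MI in PKM2fl/fl, and 148, 107 and 111 against 1568, 1382 and 1626 in PKM2-/-. The log2 changes were 3.14 ± 0.26 and 3.64 ± 0.26 (limma adjusted p = 3.0e-07 and 6.7e-08). H1f1 rose by a log2 change of 4.13 ± 0.42 and 3.85 ± 0.42, and H1f4 by 2.02 ± 0.19 and 2.70 ± 0.19.

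H1f2 differed from these in its level before injury. It already had 1790 and 1924 normalized counts at baseline in PKM2fl/fl and 1749 and 1559 in PKM2-/-. After sham it stood at 1565, 1831 and 1466 in PKM2fl/fl and at 1296, 1226 and 1204 in PKM2-/-, and after MI at 2356, 2527 and 3481 and at 4307, 2801 and 2918. The hearts separated by infarction in both genotypes, but the log2 change was 0.77 ± 0.16 in PKM2fl/fl, under the 2-fold threshold, and 1.40 ± 0.16 in PKM2-/-, which was called (limma adjusted p = 0.0011 and 4.2e-06). The difference of these effects was 0.63 ± 0.23 (limma adjusted p = 0.52) and did not pass.

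The H2A genes encode a core histone that pairs with H2B. Of 13 tested H2A genes, 12 were called higher in PKM2fl/fl and 13 in PKM2-/-, against 12.4% and 14.5% of all tested genes. The median log2 changes of the 13 were 3.71 and 3.72. H2ac20, on chromosome 3, had 108, 134 and 117 normalized counts after sham and 478, 389 and 1086 after MI in PKM2fl/fl, and 116, 53.5 and 102 against 415, 400 and 519 in PKM2-/-. No sham heart reached the level of an MI heart, and its log2 change was 2.29 ± 0.33 and 2.35 ± 0.33 (limma adjusted p = 4.6e-05 and 2.4e-05).

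The other H2A genes of high level, H2ac15, H2ac4, H2ac11 and H2ac8, rose by 3.71, 3.97, 4.62 and 3.44 on the log2 scale in PKM2fl/fl. H2ac12 had the largest log2 change of all members, 5.07 ± 0.64 in PKM2fl/fl and 4.53 ± 0.64 in PKM2-/-. It went from 7.64, 15.4 and 2.45 normalized counts after sham to 182, 195 and 509 after MI in PKM2fl/fl, and from 12.9, 6.53 and 6.47 to 214, 218 and 202 in PKM2-/-. Most of its 75-base stretches also occur in other members. H2ac21 had 27.0, 23.6 and 18.1 against 27.8, 35.4 and 98.8 normalized counts in PKM2fl/fl (log2 change 1.00 ± 0.45, limma adjusted p = 0.079), and it was called in PKM2-/- (1.35 ± 0.45, limma adjusted p = 0.018).

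The H2B genes were the most uneven type. Of 13 tested, 10 were called higher in each genotype and 3 were not, where 12.4% and 14.5% of all tested genes were called higher. The median log2 changes of the 13 were 3.28 and 3.72. H2bc18, which shares no stretch with another member, had 150, 290 and 155 normalized counts after sham and 1308, 1379 and 3548 after MI in PKM2fl/fl. In PKM2-/- it had 206, 94.0 and 137 after sham and 1373, 1714 and 1796 after MI. Infarcted and sham hearts were far apart, with log2 changes of 3.29 ± 0.38 and 3.54 ± 0.38 (limma adjusted p = 7.2e-06 and 2.3e-06). H2bc3 rose by 3.43 ± 0.40 and 3.72 ± 0.40, and H2bc15 by 3.67 ± 0.69 and 4.24 ± 0.69.

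H2bc21 was the single tested member that stood lower after MI. It had 162, 163 and 164 normalized counts after sham and 101, 134 and 97.9 after MI in PKM2fl/fl, and 169, 129 and 149 against 69.7, 97.8 and 69.2 in PKM2-/-. In both genotypes all MI hearts lay below all sham hearts. The log2 change was -0.57 ± 0.19 in PKM2fl/fl and -0.92 ± 0.19 in PKM2-/- (limma adjusted p = 0.019 and 0.00065), in both cases under 2-fold. Its single GENCODE transcript is 2620 bases long and holds no match to the stem-loop form. Leaving out PKM2-/- sham replicate 2 or PKM2-/- MI replicate 2 brought it past the 2-fold threshold, at -1.02 and -1.08.

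H2bc4 and H2bc6 are the H2B genes with the next highest mean counts after H2bc18. H2bc4 had 486, 617 and 456 normalized counts after sham and 556, 498 and 791 after MI in PKM2fl/fl, and 366, 379 and 616 against 517, 574 and 532 in PKM2-/-. Its groups overlapped in both genotypes, and the log2 change was 0.23 ± 0.20 and 0.29 ± 0.20 (limma adjusted p = 0.38 and 0.23). H2bc6 had 382, 403 and 298 after sham and 459, 549 and 930 after MI in PKM2fl/fl, and 275, 235 and 351 against 499, 552 and 589 in PKM2-/-. The groups did not overlap, and the log2 change was 0.78 ± 0.22 and 0.94 ± 0.22 (limma adjusted p = 0.0070 and 0.0016), under 2-fold. In GENCODE M39 exons of H2bc4 overlap those of H2ac6, and exons of H2bc6 overlap those of H1f4 and H4c4, so part of their reads may be shared. The same limit holds for H2bc3 and H3c3, whose exons overlap on opposite strands, and for other members that overlap further genes.

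H3 is the core histone whose tail carries many of the studied modifications. Of 12 tested H3 genes, 11 were called higher in each genotype, against 12.4% and 14.5% of all tested genes. The median log2 changes of the 12 were 3.56 and 3.28. H3c3 had 49.9, 63.6 and 50.5 normalized counts after sham and 607, 555 and 1527 after MI in PKM2fl/fl, and 46.6, 44.4 and 36.7 against 726, 739 and 765 in PKM2-/-. Its spread within groups was small beside the change, 3.86 ± 0.39 and 4.10 ± 0.39 on the log2 scale (limma adjusted p = 1.9e-06 and 7.2e-07). H3c6, H3c7, H3c11 and H3c2 rose by 2.81, 3.23, 3.53 and 3.86 in PKM2fl/fl and by 2.85, 3.19, 3.14 and 3.70 in PKM2-/-. H3c15 was the exception at 14.7, 11.3 and 11.8 against 7.73, 11.8 and 31.1 normalized counts in PKM2fl/fl and 9.65, 5.22 and 10.8 against 13.0, 8.26 and 20.2 in PKM2-/-. Those groups overlapped (log2 change 0.18 ± 0.50 and 0.60 ± 0.50, limma adjusted p = 0.79 and 0.33).

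H4 is the least varied of the core histones in protein sequence. Of 12 tested H4 genes, 11 were called higher in PKM2fl/fl and 12 in PKM2-/-, against 12.4% and 14.5% of all tested genes. The median log2 changes of the 12 were 2.78 and 3.18. H4c4 had 557, 777 and 552 normalized counts after sham and 1583, 1621 and 3791 after MI in PKM2fl/fl, and 482, 393 and 597 against 1749, 1649 and 1613 in PKM2-/-. MI hearts were all above sham hearts, and the log2 change was 1.78 ± 0.26 and 1.79 ± 0.26 (limma adjusted p = 4.9e-05 and 3.3e-05). H4c6, H4c14 and H4c3 rose by 3.14, 1.82 and 1.98 in PKM2fl/fl. H4c8 had 387, 551 and 430 against 575, 597 and 1553 in PKM2fl/fl (0.85 ± 0.30, under 2-fold) and 320, 215 and 411 against 649, 655 and 667 in PKM2-/-, where it was called (1.10 ± 0.30, limma adjusted p = 0.0056).

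**Figure D3:**
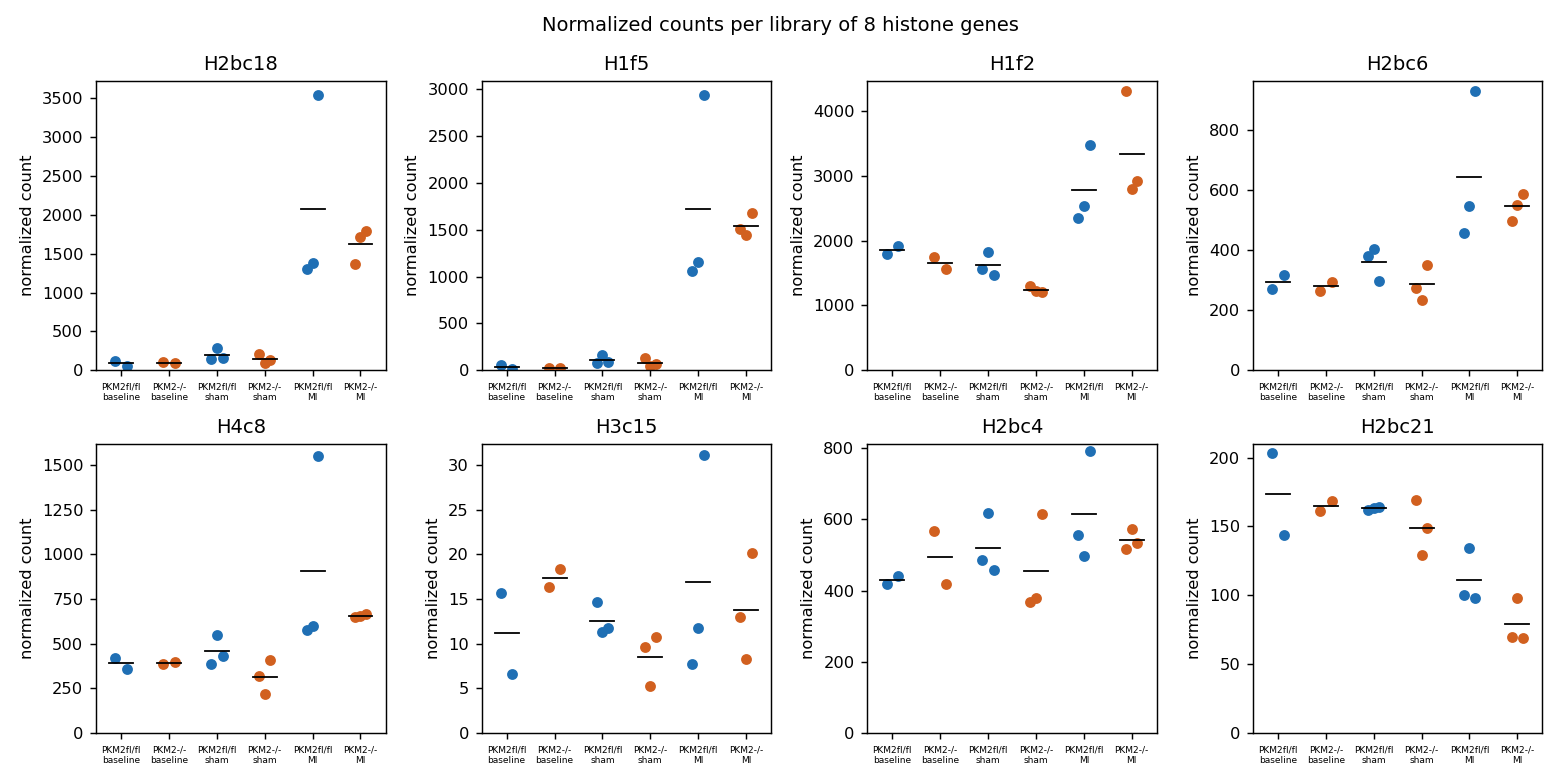
Normalized counts per heart (points; bars are group means) of 8 histone genes in the 6 groups. H2bc18 and H1f5 rise from under 300 to over 1000 in every MI heart, H1f2, H2bc6 and H4c8 rise less from a higher level, the groups overlap for H3c15 and H2bc4, and H2bc21 is lower after MI.

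The infarct effects of the genotypes share no library. All 48 members called in PKM2fl/fl were also called in PKM2-/-, where H1f2, H4c8 and H2ac21 were called in addition. H2bc21, H3c15, H2bc6 and H2bc4 were called in neither. Across the 55 members the log2 changes of both genotypes had a Pearson r of 0.93 and a Spearman rho of 0.82, which is across genes that share libraries within each genotype.

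**Figure D4:**
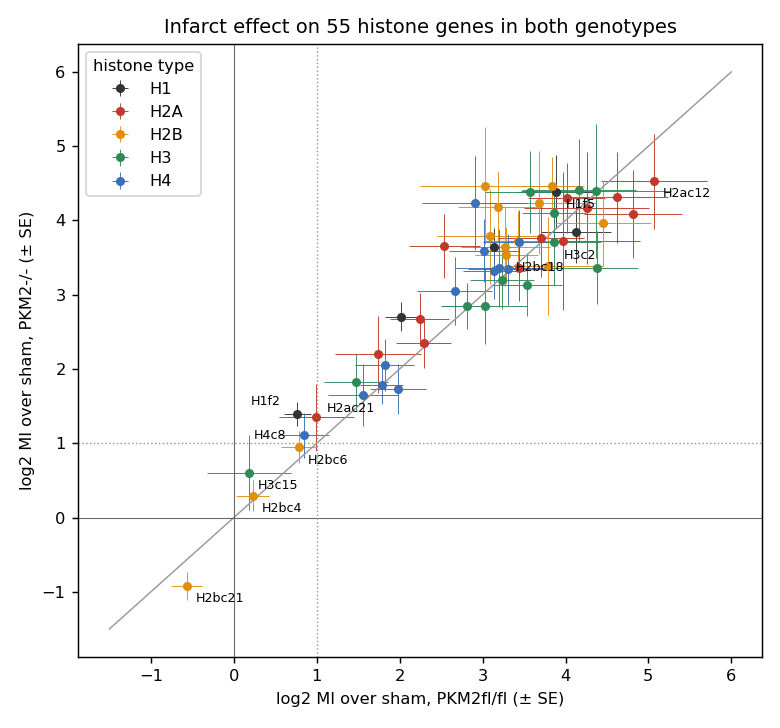
Log2 change from sham to MI of the 55 tested histone genes in PKM2fl/fl (x axis) and PKM2-/- (y axis), coloured by histone type, with standard errors. The solid line marks equal change and the dotted lines 2-fold; most genes lie between 2 and 5 on both axes near the line of equal change, and H2bc21 lies below 0 on both.

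Among the tested members, those with low baseline counts had the larger changes. Baseline hearts enter neither side of the infarct comparison, but a member with low baseline counts could be tested only if its MI or sham values were high. Over the 55 genes the log2 baseline level and the log2 infarct effect had a Pearson r of -0.65 in PKM2fl/fl and -0.66 in PKM2-/-, and a Spearman rho of -0.63 and -0.66. In the 27 members with the lower PKM2fl/fl baseline the median log2 effect was 3.79, and in the other 28 it was 2.91. For the 49 members with a sham mean of at least 10, Pearson r was -0.64 and -0.66 and Spearman rho -0.60 and -0.66. The median log2 effect in PKM2fl/fl was then 3.44 in the 24 with the lower baseline and 2.66 in the other 25. The part of the test level in the relation was not tested further.

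The annotated end of the transcript went along with the size of the effect. For 21 tested members a GENCODE transcript goes on for over 100 bases after the stem-loop, and these had median log2 changes of 2.24 in PKM2fl/fl and 2.70 in PKM2-/-. The 17 members whose transcripts end within 100 bases of it had medians of 3.44 and 3.71. The 17 with no match or no transcript, many of them annotated as coding part only, had 3.71 and 4.09. Of the 7 members not called in PKM2fl/fl, H1f2, H2bc4, H2bc6 and H3c15 are of the first kind, with up to 840, 373, 2919 and 377 bases after the stem-loop. H4c8 ends 46 bases after it, and H2ac21 and H2bc21 have no match. H1f3 is of the first kind too, with 4884 bases, and had the change of 3.14 given above. Reads of a longer transcript were not separated from those ending at the stem-loop.

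**Figure D5:**
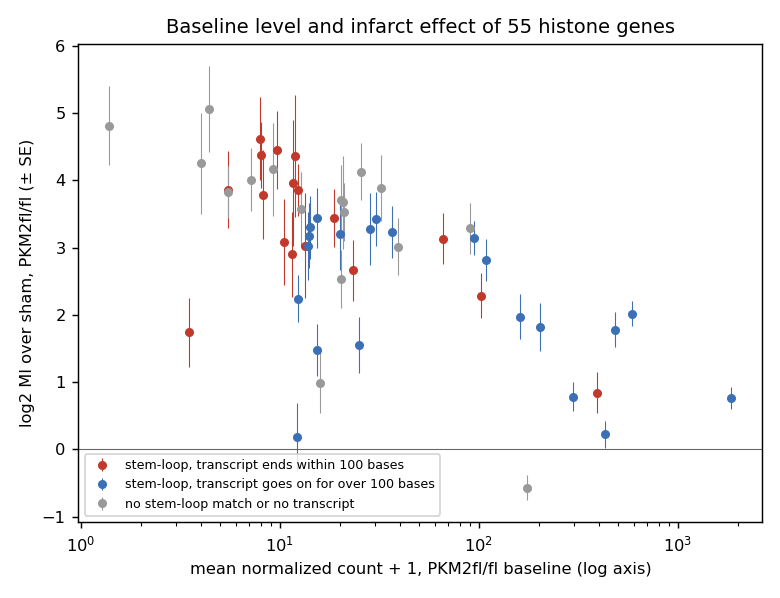
Log2 change from sham to MI in PKM2fl/fl (y axis, ± SE) against the mean normalized count + 1 in PKM2fl/fl baseline hearts (x axis, log) for the 55 tested histone genes, coloured by the annotated end of their transcripts. Effects fall from about 4 to 5 at the lowest baseline counts to under 1 for several of the genes above 200, while H2ac21 and H3c15 have small effects at low counts.

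By position, the 8 tested genes on chromosome 3 had median log2 changes of 1.65 and 1.93 and the 46 on chromosome 13 had 3.25 and 3.65. H2bc21, H3c15 and H2ac21 lie in the former cluster, as does H2bc18. H2A and H2B genes often share a promoter region, with opposite strands and starts under 300 bases apart. Of 9 such pairs in the tables, 6 had both genes tested. In H2ac11 and H2bc11 the log2 changes in PKM2fl/fl were 4.62 and 4.45, in H2ac15 and H2bc15 3.71 and 3.67, and in H2ac7 and H2bc7 1.74 and 3.09. Across the 6 pairs the H2A gene minus the H2B gene ran from -1.35 to 1.28 in PKM2fl/fl.

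The makeup of the histone pool differed between baseline, sham and infarcted hearts. H3 genes held 6.06% to 7.54% of the summed histone count in sham hearts of PKM2fl/fl and 12.8% to 16.6% in MI hearts, and in PKM2-/- 7.13% to 7.35% and 12.2% to 14.0%. H2A genes held 4.13% to 6.85% in the 6 sham hearts and 8.69% to 10.5% in the 6 MI hearts. The H1 share was 35.2% to 37.5% in PKM2fl/fl sham hearts and 24.4% to 31.0% in PKM2fl/fl MI hearts, and in PKM2-/- it was 32.2% to 40.9% and 31.4% to 38.5%, where the ranges overlapped. At baseline H1 genes held 43.0% to 49.3% in PKM2fl/fl and 45.1% to 46.1% in PKM2-/-, above the sham range of each genotype. H3 genes held 3.66% to 5.27% and 4.22% to 4.48% at baseline, below the sham ranges. H2A genes held 3.07% to 4.79% and 2.41% to 3.65% at baseline. Part of the shift thus lay between baseline and sham hearts. These are shares of counts, in which a longer transcript weighs more. The MI mean of the summed count divided by the sham mean was 11.5 for H3, 9.74 for H2A, 4.73 for H2B, 4.49 for H4 and 3.79 for H1 in PKM2fl/fl. Without PKM2fl/fl MI replicate 3, which stands apart as described next, these were 7.22, 6.93, 3.21, 2.93 and 2.97. In PKM2-/- they were 10.1 for H3, 9.63 for H2A, 4.62 for H2B, 4.51 for H4 and 5.22 for H1, so the place of H1 differed between genotypes, and this was not tested.

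One heart stood apart. In PKM2fl/fl MI replicate 3 the histone sum was 54821, and 51 of the 55 tested members had their highest value of all 16 libraries there, against 13.0% of all tested genes. Relative to the mean of the other 2 PKM2fl/fl MI hearts, the members had a median ratio of 2.63 (0.83 to 3.77), while all tested genes had a median of 0.98. Genes of DNA replication and mitosis did not move to that extent: the median ratio was 1.31 for 30 S-phase genes and 1.33 for 20 G2/M genes. The histone sum divided by the S-phase sum was 3.29 in this heart, 1.86 and 1.92 in the other PKM2fl/fl MI hearts, 1.64 to 1.78 in PKM2-/- MI hearts and 0.95 to 1.60 in sham hearts. Its cardiomyocyte sum, 120434, was the lowest of all libraries, but PKM2-/- MI replicates 3 and 2 were near it at 127546 and 130425. In this heart 44.9% of reads lay on loci related to ribosomal RNA, beside 44.1% and 19.9% in the other PKM2fl/fl MI hearts. Of 4 further RNAs without a poly(A) tail, chosen after the values of this heart were seen, all were highest there: Rn7sk had 224509 normalized counts against 114685 and 116770 in the other PKM2fl/fl MI hearts, Rmrp 91045 against 31309 and 43667, Rpph1 131317 against 64063 and 81753, and Terc 108 against 40.2 and 31.1. Their part in the result was not tested. Without this heart 47 members were called higher in PKM2fl/fl and the median log2 change was 2.72. H2ac7 was then no longer called (1.36 ± 0.57, limma adjusted p = 0.066).

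Genotype made no difference that passed the test at any stage. At baseline 0 members were called in either direction, against 0.00972% of all tested genes, with 3 members at an unadjusted p under 0.05. After sham 0 were called, against 0.00486% of all genes, with 4 at an unadjusted p under 0.05, and after MI 0, against 0.413%, with 1. The difference between the infarct effects of the genotypes (the interaction) gave 0 members, against 0% of all genes, with 2 at an unadjusted p under 0.05. Of all 20576 tested genes, 748 at baseline, 2047 after sham, 3492 after MI and 1703 in the interaction had such a p. DESeq2 and edgeR with its expression filter also called 0 members in these 4 comparisons, and edgeR without a filter called 2 lower after sham.

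The signs nevertheless leaned one way. In PKM2-/- relative to PKM2fl/fl, 42 of 55 members had a lower log2 value at baseline, 48 after sham and 46 after MI, with median log2 differences of -0.24, -0.38 and -0.22. The medians over all tested genes were -0.0034, -0.0056 and -0.0035. The H1 genes went the other way after MI: 4 of 5 tested had a higher log2 value in PKM2-/-, with a median of 0.09. Members share libraries and, in part, reads, so these counts are a description. All hearts of PKM2-/- lay below all hearts of PKM2fl/fl for 6 of the 55 at baseline, 7 after sham and 2 after MI, where 17.2%, 8.28% and 8.26% of all tested genes did. PKM2fl/fl sham replicate 2 had the highest histone sum of the sham hearts, 8346, and without it the median after sham was -0.17, and without PKM2-/- sham replicate 2, the lowest at 4233, it was -0.19. At baseline the median was 0 without PKM2fl/fl replicate 1 and -0.76 without PKM2fl/fl replicate 2. Without PKM2fl/fl MI replicate 3 the median after MI turned to 0.24 and that of the interaction went from 0.23 to 0.63, while without PKM2fl/fl sham replicate 2 or PKM2fl/fl MI replicate 1 it was -0.05 and without PKM2-/- sham replicate 2 it was -0.02. Loci related to ribosomal RNA held 17.3% and 22.2% of reads in the PKM2fl/fl baseline hearts and 44.0% and 39.9% in the PKM2-/- ones. Over 15 alternatives, which included this share as a covariate, the baseline median ran from -0.79 to -0.21. The part of these loci in the baseline values was not tested beyond that. Scaling by total reads instead of the size factors also turned the median after MI, to 0.15, while it moved the median of all tested genes to 0.36. At baseline and after sham it gave members -0.79 and -0.68 and all tested genes -0.59 and -0.32.

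The members with the smallest p in the genotype comparisons were as follows. H2bc15 at baseline had 28.3 and 11.3 normalized counts in PKM2fl/fl and 11.7 and 0 in PKM2-/-, so that the heart at 0 and low counts set its log2 difference of -2.41 ± 0.84 (limma adjusted p = 1). H1f4 after sham had 411, 586 and 482 in PKM2fl/fl and 391, 273 and 423 in PKM2-/- (-0.45 ± 0.19, limma adjusted p = 0.44). H2bc21 after MI, with the values above, was lower in PKM2-/- by a log2 difference of -0.49 ± 0.19 (limma adjusted p = 0.20). In each case the p did not pass once adjusted over all genes.

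After a sham operation alone few members passed the test. These comparisons use the same sham libraries as the infarct effects, on the other side of the contrast. Relative to baseline, 50 of 55 members had a higher log2 value after sham in PKM2fl/fl and 46 in PKM2-/-, with median log2 changes of 1.01 and 0.93. Without PKM2fl/fl baseline replicate 2 the former median was 0.31, without PKM2fl/fl baseline replicate 1 it was 1.41, and without PKM2fl/fl sham replicate 2 it was 0.67. The summed histone count was 1.20 times the baseline mean after sham in PKM2fl/fl and 0.997 times in PKM2-/-, with H1 genes at 0.951 and 0.786 times. The test called 1 member higher and 0 lower in PKM2fl/fl, against 0.160% and 0.00972% of all tested genes. It called 4 higher and 0 lower in PKM2-/-, against 2.06% and 0.608%. At an unadjusted p under 0.05 there were 19 members higher in PKM2fl/fl, and 24 higher and 2 lower in PKM2-/-. Of all 20576 tested genes, 1177 in PKM2fl/fl and 2333 in PKM2-/- were higher at that level. The sham hearts all lay above the baseline hearts for 24 of 55 members in PKM2fl/fl and 25 in PKM2-/-, where 17.4% and 18.4% of all tested genes did.

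H3c3 was called after sham in both genotypes. It had 17.3 and 5.31 normalized counts at baseline and 49.9, 63.6 and 50.5 after sham in PKM2fl/fl, and 6.99 and 3.67 against 46.6, 44.4 and 36.7 in PKM2-/-. The groups were well apart, and the log2 change was 2.37 ± 0.43 and 2.83 ± 0.43 (limma adjusted p = 0.038 and 0.0026). H3c2, H3c11 and H2ac7 were called in PKM2-/- alone, at 3.27 ± 0.64, 1.94 ± 0.48 and 2.11 ± 0.58, and whether these differ between genotypes was not tested. H1f2 had log2 values of -0.20 ± 0.18 and -0.41 ± 0.18 that did not pass. In PKM2-/- sham hearts 4 of 4 tested neutrophil markers, 3 of 6 fibroblast markers and 8 of 19 tested G2/M genes were also called higher than at baseline, and 1 G2/M gene, Cenpf, was called lower. Of the 30 S-phase genes 0 were called higher by limma-trend and 1 lower, Ccne1 at -1.07 ± 0.28, with a median log2 change of 0.18. At an unadjusted p under 0.05 there were 9 of them, against 3886 of all 20576 tested genes. The part of these lists in the histone values was not tested. The calls were not firm: leaving out single libraries lost that of H3c3 in PKM2fl/fl in 10 of 16 cases. The count in PKM2-/- was 2 without PKM2-/- sham replicate 1 or 2, 7 without PKM2-/- baseline replicate 1 and 9 without PKM2fl/fl MI replicate 3.

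Genes that work beside the histones moved to different extents after MI. Of 30 S-phase genes, 23 were called higher and 1, the uracil glycosylase gene Ung, lower in PKM2fl/fl. In PKM2-/- 24 were called higher. The median log2 changes of the 30 were 1.97 and 2.09. Mcm3 and Mcm5, parts of the replicative helicase, rose by 2.39 ± 0.16 and 2.81 ± 0.19 in PKM2fl/fl, and Lig1, which joins Okazaki fragments, by 2.01 ± 0.13. All 19 tested G2/M genes rose in both genotypes, with medians of 3.46 and 3.73, among them Ccna2, Ccnb2 and Kif20a. The summed S-phase level was 4226 to 5208 normalized counts in the 10 baseline and sham hearts and 12378 to 17376 in the 6 MI hearts.

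The factors that make and process histone mRNA mostly stayed under the 2-fold threshold. Of 20 tested, 0 were called in PKM2fl/fl by limma-trend, while 2 were higher and 1 lower in PKM2-/-, against 14.5% and 14.3% of all tested genes. At an unadjusted p under 0.05 there were 13 of the 20 in PKM2fl/fl, against 11476 of all 20576 tested genes. Slbp, which binds the stem-loop, had log2 changes of 0.87 ± 0.16 in PKM2fl/fl and 1.18 ± 0.16 in PKM2-/-. Eri1, an exonuclease that trims that end, had 0.86 ± 0.11 and 1.13 ± 0.11, and Mif4gd, a partner of SLBP in translation, -0.87 ± 0.13 and -1.03 ± 0.13. Cstf2, a cleavage factor of mRNA ends, had 0.62 ± 0.12 and 0.87 ± 0.12. Npat, the activator of histone gene transcription, stood at 0.50 ± 0.13 and 0.68 ± 0.13, under 2-fold. Whether any of these differ between genotypes was not shown by the interaction test, in which no gene passed.

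Replication-independent histones, which are made outside S phase as well and mostly from polyadenylated mRNAs, were mostly below the 2-fold threshold. Of 11, 2 were called higher in PKM2fl/fl and 4 in PKM2-/-, against 12.4% and 14.5% of all tested genes. H2ax, a variant that marks DNA breaks and whose transcript exists in both a stem-loop and a polyadenylated form, rose by 2.73 ± 0.23 and 2.82 ± 0.23, and H2az1 rose by 1.27 ± 0.18 and 1.92 ± 0.18. Macroh2a1, a large H2A variant, had 0.71 ± 0.08 and 0.54 ± 0.08. H3f3b, which encodes the replacement histone H3.3, was called in PKM2-/- alone (0.86 ± 0.15 and 1.22 ± 0.15). So was H1f10 (0.43 ± 0.42 and 2.19 ± 0.42), at 3.67 to 69.2 normalized counts over the libraries. Its interaction did not pass (limma adjusted p = 0.50). Of 16 histone chaperones, 2 were called higher in PKM2fl/fl and 4 in PKM2-/-, against 12.4% and 14.5% of all tested genes. They included Asf1b, at 2.40 ± 0.28 and 2.81 ± 0.28, and Chaf1b of the CAF-1 complex, which loads histones behind the replication fork, at 2.49 ± 0.40 and 3.70 ± 0.40. Nasp, which binds soluble H3 and H4, and Npm1 had 0.66 ± 0.10 and 0.72 ± 0.11 in PKM2fl/fl, under 2-fold. In PKM2-/- both were called higher, at 1.06 ± 0.10 and 1.26 ± 0.11.

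The cell types of the tissue changed with infarction at the same time. All 6 cardiomyocyte markers, among them Tnni3, Ryr2 and Pln, fell in both genotypes, and their sum was 120434 to 293048 normalized counts in the MI hearts. All 7 macrophage and monocyte markers were called higher in both genotypes, among them Ptprc, Cd68 and Ccr2. So were 4 of 6 fibroblast markers, with Postn, Col1a1 and Col1a2, and 2 of 4 tested neutrophil markers. None of 4 endothelial and 5 erythroid markers was called by limma-trend in either genotype. At an unadjusted p under 0.05 there were 3 endothelial markers in each genotype and 1 erythroid marker in PKM2-/-. Of all 20576 tested genes, 11476 in PKM2fl/fl and 12559 in PKM2-/- were at that level. Of 2 tested lymphocyte markers, Ms4a1 was called higher in PKM2fl/fl. In whole tissue a change in the number of cells of a type and a change in RNA per cell cannot be told apart. The part of these markers in the histone values was not tested.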

How the data were processed

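RNA from the left ventricle was sequenced as paired reads after depletion of ribosomal RNA. The authors trimmed with PRINSEQ, aligned to mm10 with HISAT2, counted genes with featureCounts and scaled with DESeq2; versions, annotation and the handling of strand and repeated matches are not given in the sources used here. The deposited values are a signal, counts divided by DESeq2 size factors; 100.0% of 465236 values above 0 gave whole reads within 0.01. The deposited columns with the authors' mean, log2 fold change and its error, test score (Wald statistic) and p-value compare the baseline genotypes and were not used.

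Each column matched 1 sample by name, and 0 per-sample columns were left over. The test was limma-trend (limma 3.58.1, R 4.3.3) on log2(normalized count + 1) over 16 libraries in 6 groups, for genes with a mean of at least 10 (20576 of 55492), with Benjamini-Hochberg adjustment over all of them. A call needed an adjusted p under 0.05 and a 2-fold change. The design had foreseen edgeR for raw counts; since normalized counts were found, edgeR 4.0.16 and DESeq2 1.42.0 were run on the recovered reads as alternatives. On simulated counts for the infarct effect in PKM2fl/fl, limma-trend recovered 96% of 200 genes changed by a log2 fold of 2 among 20566 genes, with 10 false calls. Depth was 20623769 to 71855101 reads, and intervals rest on the spread between hearts.

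Members and gene lists were chosen with earlier results of these data known. Named members were the 5 with the highest mean count of each histone type, those called between genotypes, and the smallest p of each comparison; of the other lists, the 3 genes with the smallest p for the infarct effect in PKM2fl/fl, given by count alone for ribosomal loci and for lists of which few or none passed. Outside that rule, Slbp, Npat, H3f3b and Chaf1b are named for their role, and Ung, Cenpf and Ccne1 as the genes called lower. Others are named as exceptions, as extremes or for their role, after their values were seen. Coordinates and promoters are from RefSeq (GRCm38.p6), transcripts from GENCODE M39 (GRCm39). A match to RefSeq was found for 65 members. Alternatives covered scaling, pseudocount, filter, tool, samples in the fit, replicate block, share of reads on loci related to ribosomal RNA, and each library left out.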

Additional observations from a re-analysis of the deposited data

Results flagged for a closer look

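H3c15 was the member whose genotype difference pointed in opposite directions in 2 conditions, with no overlap of hearts in either. At baseline both PKM2-/- hearts (16.3 and 18.3 normalized counts) lay above both PKM2fl/fl hearts (15.7 and 6.63), with a log2 difference of 0.70 (limma adjusted p = 1). After sham all 3 PKM2-/- hearts (9.65, 5.22 and 10.8) lay below all 3 PKM2fl/fl hearts (14.7, 11.3 and 11.8), with a log2 difference of -0.55 (limma adjusted p = 0.81). The difference between these differences was not tested. Counts were low, and 62.6% of the 75-base stretches of H3c15 occur in another member.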

How the results depend on the processing

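The infarct calls held: 42 to 52 members were called higher in PKM2fl/fl and 45 to 55 in PKM2-/- over 15 alternatives, and 47 to 50 and 50 to 52 with each library left out. By adjusted p alone 1 member, H2bc21, was lower in each genotype, and leaving out libraries gave 0 to 1 lower in PKM2-/-, the 1 without PKM2-/- sham replicate 2 or MI replicate 2. Scaling by total reads gave 1 member lower at baseline between genotypes, 4 higher after sham in PKM2fl/fl and 15 in PKM2-/-; leaving out libraries gave 0 to 1 lower at baseline (1 without PKM2-/- baseline replicate 1), 0 to 1 higher after sham in PKM2fl/fl and 2 to 9 in PKM2-/-. edgeR without a filter gave 2 lower between genotypes after sham, 14 higher after sham in PKM2fl/fl and 19 in PKM2-/-. After sham in PKM2fl/fl a pseudocount of 5, the fit to the groups compared, the share of ribosomal loci and filtered edgeR gave 0, and DESeq2 2; in PKM2-/- the fit to the groups compared and filtered edgeR gave 1. With the replicate block 0 were higher after sham in PKM2fl/fl, 3 in PKM2-/- and 48 and 51 after infarction. Deviations from the group mean of same-numbered hearts of the genotypes correlated at -0.057 to 0.13. PKM2fl/fl MI replicates 1 and 3 correlated best with the PKM2-/- heart of the same number, and the other hearts did not. With 2 or 3 hearts a group this cannot decide whether the numbers mark pairs. H2bc4 in PKM2fl/fl turned to -0.0038 and H3c15 to -0.019 with the share of ribosomal loci as a covariate, and with libraries left out H3c15 ran from -0.35 (without PKM2fl/fl MI replicate 3) to 0.59. The causes were not tested. The filter on sham means was added after seeing the data. With 2 baseline hearts a group, baseline comparisons could show only large differences.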
